A study of Mus musculus with 6 samples.

Results

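The 10 genes described here encode proteins that end signals from G protein coupled receptors or destroy the cyclic nucleotides those receptors raise. They are 5 regulators of G protein signalling (Rgs2, Rgs3, Rgs4, Rgs16 and Rgs19) and 5 phosphodiesterases (Pde1a, Pde3b, Pde4b, Pde4d and Pde5a). Each was found by its symbol in the gene name field of the deposited table and had 1 row of its own among 31097 rows. The set was chosen by FPKM levels already seen in these same WT and KO libraries, so the differences of these 10 genes are given as a description and carry no test. FPKM is a fragment count divided by transcript length and by library size. The libraries were 3 WT and 3 SWELL1 KO libraries of 3T3-F442A, a mouse preadipocyte line that the labels class as an adipocyte line, all grown in RPMI with 10% FBS. The KO cells had the SWELL1 gene (Lrrc8a, which encodes an obligatory part of volume-regulated anion channels) cut with CRISPR/Cas9, and the WT cells were the parental line. Each group's libraries are labelled as biological replicates. The design text speaks of isogenic KO lines in the plural, but no source used here ties a library to a line or says whether the cells were differentiated or what the mark D3 in the KO sample names stands for. A line or D3 difference and the genotype therefore cannot be told apart.

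A receptor at the cell surface switches on a heterotrimeric G protein by loading its alpha subunit with GTP, and RGS proteins switch it off by speeding GTP hydrolysis on Gi and Gq family subunits. Gs drives adenylyl cyclase to make cAMP, Gi restrains that enzyme, and nitric oxide or natriuretic peptides raise cGMP through guanylyl cyclases. Phosphodiesterases break both messengers down. In fat cells cAMP acting through protein kinase A starts lipolysis, and in preadipocytes it helps to begin differentiation.

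Because 3 of the RGS genes lie on chromosome 1 and differed in how they behaved between the groups, the DNA before their start sites is shown first. The sequences run 5′ to 3′ on the strand of the gene (RefSeq, GRCm38.p6) and end where the first exon annotated in GENCODE M21 begins. Capitals mark the core of the cAMP response element, TGACG, on either strand (CGTCA is the same core on the opposite strand). The Rgs2 stretch is chr1:144004162-144004399, minus strand. The Rgs16 stretch is chr1:153740103-153740348, plus strand, and the Rgs4 stretch is chr1:169747643-169747892, minus strand.
Rgs2: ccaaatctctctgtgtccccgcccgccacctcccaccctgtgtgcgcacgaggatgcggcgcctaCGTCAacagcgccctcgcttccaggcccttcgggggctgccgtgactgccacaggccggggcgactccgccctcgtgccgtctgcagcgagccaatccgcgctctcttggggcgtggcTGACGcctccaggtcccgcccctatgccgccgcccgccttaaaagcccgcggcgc
Rgs16: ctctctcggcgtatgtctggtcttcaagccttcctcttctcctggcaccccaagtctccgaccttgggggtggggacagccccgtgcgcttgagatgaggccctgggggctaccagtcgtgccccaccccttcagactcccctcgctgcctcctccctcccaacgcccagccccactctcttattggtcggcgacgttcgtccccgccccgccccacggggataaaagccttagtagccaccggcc
Rgs4: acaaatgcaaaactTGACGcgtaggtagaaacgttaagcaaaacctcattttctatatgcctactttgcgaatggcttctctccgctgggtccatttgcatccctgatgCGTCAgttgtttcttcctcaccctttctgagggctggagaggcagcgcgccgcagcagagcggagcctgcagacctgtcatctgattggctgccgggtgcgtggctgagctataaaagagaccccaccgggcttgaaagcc

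Rgs2 held the core at 2 places, 185 to 181 and 67 to 63 bases before the RefSeq start, and Rgs4 also held it at 2 places, 236 to 232 and 141 to 137 bases before the start. Rgs16 held none. Of 32851 RefSeq start windows, searched over the 250 bases before the start on both strands, 17.8% held TGACG. The full palindrome TGACGTCA, which contains that core, was in 1.55% of windows and in none of the 18 windows of the 9 members with a RefSeq entry (Pde3b had none). The Sp1-type GC box GGGCGG was in 32.7% of windows, at 4 places before Rgs2 and 2 before Rgs16 (which share 1 base), and at none before Rgs4. The letters TATAAA, in 12.4% of windows, stood 31 to 26 bases before the Rgs4 start. A match is a string of letters and not evidence of binding. The other members have several start sites, or a window that runs into annotated exons (Pde5a and Pde4d), and the table does not tell which start was used.

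By a rough estimate, the deposited values rest on 17.4 to 20.9 M (mega) fragments per WT library and 18.3 to 26.0 M per KO library. The row holding Lrrc8a also holds Nup188 and Phyhd1 and ranged from 32.5 to 35.003 FPKM in WT and 27.3 to 28.8 in KO, so it does not read the targeted gene alone. In KO, 16.7% to 23.7% of the FPKM sum was in 1 row, AC166252.2, against 0% to 2.1% in WT; rescaling each library without that row moved the median log2 difference of all tested rows from -0.07 to 0.04. All 6 fibroblast and preadipocyte markers were at 1 FPKM or more in every library, with summed levels of 3918 to 4523 in WT and 2521 to 2695 in KO. Col1a1, Col1a2 and Dlk1 made up most of that sum, and Pdgfrb went the other way, with 27.6 to 31.0 FPKM in WT and 40.8 to 42.1 in KO. Of 8 markers of mature fat cells, 4 reached 1 FPKM in all WT and 2 in all KO libraries (sums 143 to 202 and 9.03 to 10.4). Fabp4 made up most of the WT sum, with 133 to 188 FPKM in WT and 2.45 to 4.37 in KO, while Lipe overlapped, with 6.17 to 7.63 and 5.64 to 6.70. Lep was listed at 0 in every library, and Cebpa at 0 in KO, with 0.111 to 0.157 FPKM in WT. Summed markers of leukocytes (3 of 5 with a row) came to 1.29 to 1.64 FPKM in WT and 0.115 to 0.327 in KO. Those of endothelium (4 markers) came to 0.457 to 0.659 in WT and 2.05 to 2.45 in KO. Those of epithelium (4 markers) came to 0 to 0.0449 in WT and 1.25 to 1.54 in KO. Csf1r and Epcam were listed at 0 throughout. Single genes made up most of these sums: Lyz2 for leukocytes, Vwf for endothelium and, in KO, Krt8 for epithelium. Krt8 was at 0 in WT and 1.17 to 1.49 FPKM in KO. Ptprc went the other way from Lyz2, at 0 in WT and 0.00977 to 0.0204 in KO. Smooth muscle markers (3 of 4 with a row, nearly all Acta2) summed to 68.1 to 79.7 in WT and 1.76 to 2.47 in KO, and Myod1 and Myog were listed at 0. The part of these shifts in the values below was not tested, and in bulk RNA fewer cells of a type and less RNA per cell cannot be told apart.

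Averaged over all 6 libraries, 9 of the 10 members reached 0.5 FPKM and entered the fit across all rows, and Rgs4 did not. In 6 members every KO library lay below every WT library, in 1 every KO library lay above, and in 3 the groups overlapped. Among all 10515 tested rows those separations were seen in 40.3% and 31.5%, and since these values chose the members nothing is read from the count. The median log2 difference of the 9 was -1.01, against -0.07 over all tested rows. For the same reason nothing is read from this gap. Log2 differences are KO minus WT on log2(FPKM + 0.5), which understates changes of genes near 0.

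Among the RGS genes, Rgs2 was much lower in KO, Rgs16 and Rgs19 were lower by smaller amounts, and Rgs3 and Rgs4 overlapped between the groups. Rgs2 encodes a short R4-type RGS protein that acts chiefly on Gq (ENSMUSG00000026360, chromosome 1, 143999338 to 144004161, GRCm38, minus strand). It measured 59.0, 60.0 and 52.6 FPKM in the WT libraries, against 1.72, 1.47 and 2.53 in the KO libraries. The KO libraries were all low and far from the WT range, with means of 57.2 ± 4.01 and 1.91 ± 0.55 (SD, n = 3 each). The log2 difference was -4.61 (SE 0.17), and 23 of the 10515 rows had a larger fall.

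Rgs16, also of the R4 type and active on Gi and Gq, lies on chromosome 1 from 153740349 to 153745468 (ENSMUSG00000026475). It measured 50.6, 50.5 and 60.0 FPKM in the WT libraries, against 10.3, 12.0 and 15.3 in the KO libraries. The groups did not overlap, and KO held 23.3% of the WT mean (log2 difference -2.07, SE 0.15). Rgs19, or GAIP, of the RZ type and active on Gi family subunits, lies on chromosome 2 from 181688419 to 181693977 (ENSMUSG00000002458). It measured 36.6, 38.8 and 41.6 FPKM in the WT libraries, against 23.2, 23.5 and 24.5 in the KO libraries, a narrow spread in both groups. Its log2 difference of -0.70 (SE 0.06) was the smallest among the 7 members without overlap and came to -0.58 when the libraries were rescaled without AC166252.2.

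Rgs3, an R4-type gene with long and short isoforms, lies on chromosome 4 from 62559847 to 62704001 (ENSMUSG00000059810, 17 annotated transcripts). It measured 43.5, 33.3 and 31.2 FPKM in the WT libraries, against 45.1, 40.5 and 37.5 in the KO libraries. WT replicate 1 sat among the KO values, and the log2 difference was 0.20 (SE 0.14). Without that library it was 0.34. Rgs4, an R4-type gene best known from neurons and heart (chromosome 1, 169741477 to 169747642, ENSMUSG00000038530), read 0.298, 0.359 and 0.148 FPKM in the WT libraries, against 0.215, 0.305 and 0.280 in the KO libraries. At the length of its longest transcript these values correspond to about 9.10 to 23.3 fragments per library, and a difference was not detectable at this depth. Rgs2 and Rgs4, whose stretches printed above each hold 2 TGACG cores, were among the highest and the lowest of the members in WT. Pde4b and Pde1a, each with the core in 1 window, lay between them. The Pde4b core stood 34 to 30 bases before the start, within the last 37 bases of its window, which are annotated exon. A link between the core and level was not tested.

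**Figure D1:**
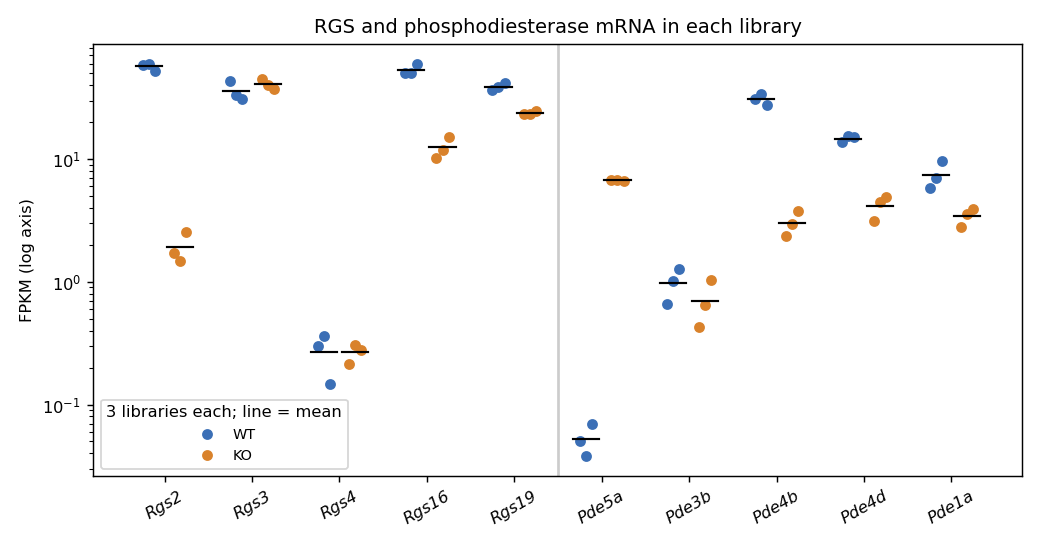
FPKM of the 10 genes in each library on a log axis, RGS genes on the left and phosphodiesterase genes on the right; points are the 3 WT and 3 KO libraries and lines are group means. Rgs2, Rgs16, Rgs19, Pde4b, Pde4d and Pde1a were lower in all 3 KO libraries, Pde5a was higher in all 3, and Rgs3, Rgs4 and Pde3b overlapped.

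Of the phosphodiesterases, the cAMP-specific Pde4b and Pde4d and the dual-substrate Pde1a were lower in KO, the cGMP-specific Pde5a was higher and Pde3b overlapped. Pde4b lies on chromosome 4 from 102087543 to 102607259 (ENSMUSG00000028525, 13 annotated transcripts). It measured 30.6, 34.0 and 27.9 FPKM in the WT libraries, against 2.37, 2.97 and 3.76 in the KO libraries. All KO libraries were far below the WT range, and KO held 9.83% of the WT mean (log2 difference -3.16, SE 0.16). Pde4d lies on chromosome 13 from 108449948 to 109953461 (ENSMUSG00000021699, 20 annotated transcripts) and read 13.7, 15.4 and 15.1 FPKM in the WT libraries, against 3.14, 4.49 and 4.91 in the KO libraries. Its KO libraries stayed apart from WT as well, with KO at 28.4% of the WT mean (log2 difference -1.72, SE 0.16).

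Pde5a, the cGMP-specific enzyme inhibited by sildenafil, lies on chromosome 3 from 122728947 to 122859374 (ENSMUSG00000053965). It measured 0.0504, 0.0379 and 0.0695 FPKM in the WT libraries, against 6.76, 6.80 and 6.67 in the KO libraries. The KO libraries agreed closely with one another, and the WT values rest on about 5.51 to 11.0 fragments per library. The ratio of the means was 128, and the log2 difference of 3.71 (SE 0.08) became 5.49 with a pseudocount of 0.1 and 2.88 with a pseudocount of 1. Of the 10515 rows, 57 had a larger rise on the main scale. Members, Rgs2 included, were chosen with their differences known, so nothing is read from such a rank. The WT mean of Pde5a lay below the filter, so Pde5a entered the fit through KO alone. A transcript on the opposite strand, 4930447N08Rik, overlaps the gene, and the sources used here do not say whether strand was kept, so reads of the pair could not be told apart; the same holds for Rgs16 and Rgs3, each of which overlaps 1 antisense gene.

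The remaining members degrade both messengers. Pde1a, which is activated by calcium and calmodulin (chromosome 2, 79834453 to 80129458, ENSMUSG00000059173), read 5.82, 7.05 and 9.59 FPKM in the WT libraries, against 2.77, 3.55 and 3.90 in the KO libraries. Its WT libraries spread more widely than those of Pde4d, but none fell into the KO range (log2 difference -1.01, SE 0.20). Pde3b, the enzyme through which insulin lowers cAMP in fat cells (chromosome 7, 114415281 to 114539251, ENSMUSG00000030671), read 0.663, 1.02 and 1.26 FPKM in the WT libraries, against 0.426, 0.646 and 1.03 in the KO libraries. The groups overlapped, and the log2 difference of -0.31 (SE 0.25) ran from -0.50 without KO replicate 3 to -0.14 without KO replicate 1.

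Levels per length can be ordered across genes. In WT the order from the top was Rgs2, Rgs16, Rgs19, Rgs3, Pde4b, Pde4d, Pde1a, Pde3b, Rgs4 and Pde5a; Rgs2 and Rgs16 overlapped, as did Rgs19 and Rgs3, and Rgs3 and Pde4b. In KO it was Rgs3, Rgs19, Rgs16, Pde5a, Pde4d, Pde1a, Pde4b, Rgs2, Pde3b and Rgs4. There Pde4d and Pde1a overlapped, as did Pde1a and Pde4b, and Pde4b and Rgs2. Rgs2 thus went from the first place to the eighth and Pde5a from the last to the fourth.

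Summed over the 18 RGS genes with their own row, RGS mRNA came to 196, 191 and 192 FPKM in WT and 90.8, 89.3 and 91.1 in KO. The R4 subfamily took 74.9% to 78.3% of this sum in WT and 60.9% to 63.5% in KO, and the RZ subfamily 19.9% to 23.1% and 30.4% to 33.1%. The 21 catalytic phosphodiesterase genes summed to 72.3, 77.55 and 73.4 FPKM in WT and 46.2, 50.4 and 51.6 in KO. Within that sum the cAMP-specific genes came to 54.9 to 62.4 FPKM in WT and 24.6 to 28.7 in KO. The cGMP-specific genes came to 0.195 to 0.425 FPKM in WT, or 0.252% to 0.579% of the sum. In KO they came to 7.23 to 7.96 FPKM, or 15.3% to 15.8%. Most of that KO level was the chosen member Pde5a, at 6.67 to 6.80 FPKM. Every other gene of the class was at 0.648 FPKM or less in each library. Genes for enzymes that degrade both messengers overlapped, at 14.2 to 18.04 FPKM in WT and 14.3 to 15.01 in KO. These sums contain the chosen members and are given without a test.

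**Figure D2:**
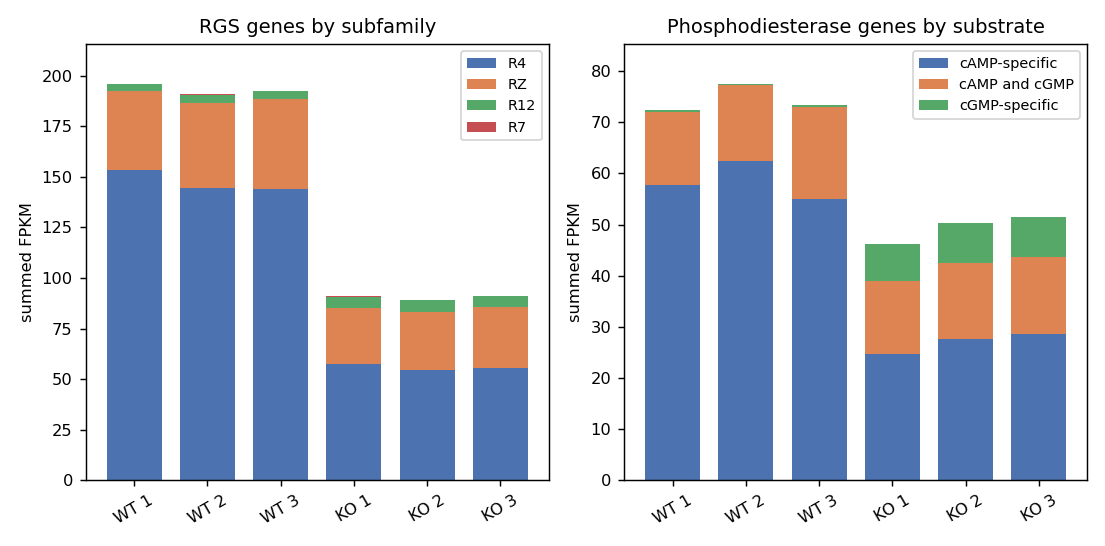
Summed FPKM of RGS genes by subfamily (left) and of catalytic phosphodiesterase genes by substrate (right), 1 stacked bar per library, axes from 0. The RGS sum was 191 to 196 FPKM in WT and 89.3 to 91.1 in KO. The cGMP-specific part of the phosphodiesterase sum was visible only in the KO libraries, where it was mostly the chosen member Pde5a.

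The other genes of both families were listed by family membership and tested in the fit across all rows (limma, two-sided, Benjamini-Hochberg adjustment, threshold 0.05). In that fit 65.2% of the tested rows passed, 28.5% higher and 36.7% lower in KO. Of 14 other RGS genes with a row, 3 were tested; 2 rose, none fell and Rgs17 did not pass. Rgs20, of the RZ type like Rgs19, rose from 1.51, 1.39 and 1.66 FPKM to 3.37, 3.80 and 4.37 (1.0997 on the log2 scale, SE 0.11, adjusted p = 0.000316). Rgs12, a large multidomain RGS protein, rose from 3.44, 4.11 and 3.74 to 5.41, 5.88 and 5.18 (0.49, SE 0.08, adjusted p = 0.00286). Both moved opposite to Rgs19, Rgs16 and Rgs2. Rgs17 was at 1.38 ± 0.54 and 1.30 ± 0.26 FPKM (adjusted p = 0.894). The other 11 were below the filter.

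Of 16 other phosphodiesterase genes, 6 were tested, of which 4 rose, 1 fell and 1 did not pass. Pde4a, the close relative of Pde4b and Pde4d, rose from 4.74, 4.46 and 3.90 FPKM to 6.16, 6.73 and 5.62 (log2 fold change 0.46 with SE 0.10, adjusted p = 0.00728). The KO libraries were all above the WT libraries, the reverse of Pde4b and Pde4d. The other cAMP-specific genes in the test also rose: Pde7a from 6.87 ± 0.36 to 10.6 ± 0.66 (adjusted p = 0.000552) and Pde8b from 1.48 ± 0.45 to 2.75 ± 0.38 (adjusted p = 0.0149). The Pde8b call was lost without KO replicate 3 (adjusted p = 0.0505). Pde1b, calmodulin-activated like Pde1a, rose from 0.870, 0.691 and 1.16 FPKM to 4.95, 4.69 and 4.37 (1.89, SE 0.14, adjusted p = 8.55e-05), while Pde1a was lower in KO. Pde2a, which cGMP stimulates, fell from 0.975 ± 0.126 to 0.295 ± 0.030 (adjusted p = 0.00127). Its KO mean lay below the filter, so Pde2a entered the test through WT. Pde10a was at 5.41 ± 0.39 and 5.65 ± 0.25 (adjusted p = 0.483).

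**Figure D3:**
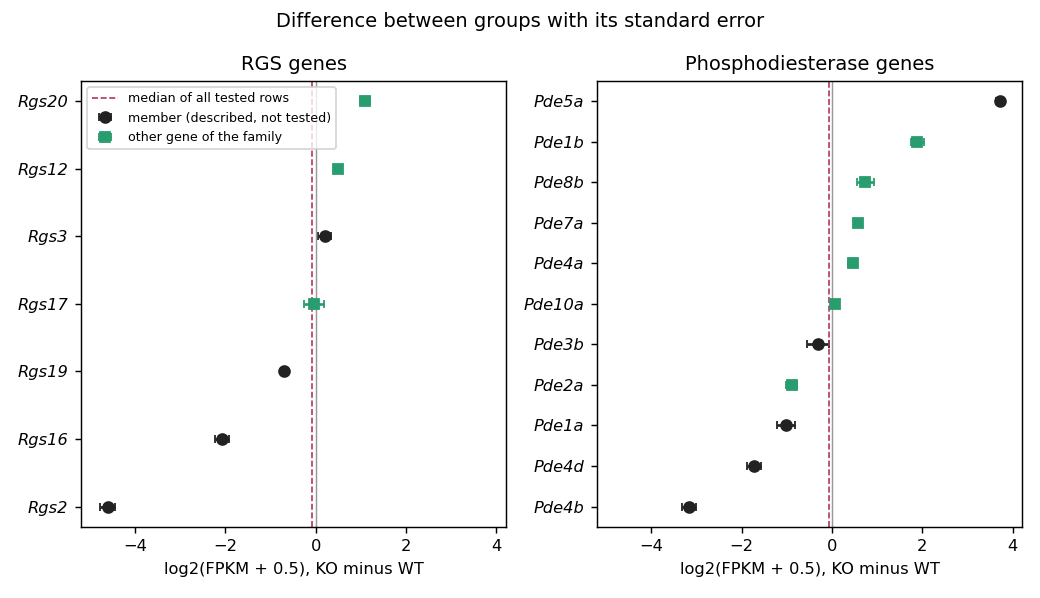
Difference between groups on log2(FPKM + 0.5), KO minus WT, with its standard error, for RGS genes (left) and phosphodiesterase genes (right); black circles are the chosen members, green squares the other tested genes of each family, and the dashed line is the median of all tested rows, -0.07. Within each family genes lay on both sides of 0, from Rgs2 at -4.61 to Rgs20 at 1.0997 and from Pde4b at -3.16 to Pde5a at 3.71.

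Of 9 tested G protein alpha subunits of all families 3 rose, 3 fell and 3 did not pass. Gnaq and Gna11, the Gq family targets of Rgs2, rose from 4.79 ± 0.29 to 9.53 ± 0.60 FPKM (adjusted p = 9.99e-05) and from 17.1 ± 0.57 to 25.1 ± 0.35 (adjusted p = 0.000105). Of the Gi family, on which Rgs16 and Rgs19 act, Gnai2 fell from 193 ± 6.10 to 140.0 ± 3.16 (adjusted p = 0.000132), while Gnao1 (34.2 ± 2.97 and 39.9 ± 8.39) and Gnaz (0.708 ± 0.200 and 0.643 ± 0.104) did not pass (adjusted p = 0.286 and 0.724); these 3 were added with their values known. Gnas, which encodes Gs and had the highest level of the list, fell from 484 ± 6.47 to 343 ± 21.9 (adjusted p = 0.000358), and Gna12 from 36.1 ± 1.91 to 19.7 ± 1.14 (adjusted p = 8.69e-05). Of 8 tested beta and gamma subunits 3 rose and 2 fell. Gnb4 was at 0.871, 0.371 and 0.386 FPKM in WT and rose to 7.37, 8.94 and 6.96 in KO (adjusted p = 6.9e-05), and Gng11 rose from 1.03 ± 0.08 to 4.25 ± 0.38. Gng12 fell from 105 ± 3.16 to 58.3 ± 1.24 and Gng5 from 241 ± 9.74 to 189.5 ± 5.73.

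All 3 tested cyclase genes passed. The adenylyl cyclases Adcy6 and Adcy9 fell, from 21.4 ± 0.65 to 12.8 ± 1.13 FPKM (adjusted p = 0.000314) and from 2.34 ± 0.15 to 0.892 ± 0.181 (adjusted p = 0.00062). The natriuretic peptide receptor cyclase Npr1 rose from 0.450 ± 0.003 to 0.776 ± 0.029 (adjusted p = 0.0136), all under 1 FPKM. Its WT mean lay below the filter, so Npr1 entered the test through KO. Of the soluble guanylyl cyclase genes, all below the filter, Gucy1b3 was listed at 0 in every library and Gucy1a3 in all but KO replicate 2, at 0.00817 FPKM. Gucy1a2 ranged from 0.0108 to 0.0447 FPKM in WT and, without overlap, from 0.324 to 0.437 in KO. Npr1 and these 3 genes were singled out after their values were seen. Of 13 tested effectors of cAMP and cGMP 4 rose, 4 fell and 5 did not pass. Pkig, an inhibitor of protein kinase A, fell from 95.5, 89.9 and 87.8 FPKM to 21.95, 24.3 and 31.7 (log2 fold change -1.81, SE 0.13; adjusted p = 9.54e-05), and its relative Pkia fell from 1.57 ± 0.05 to 0.869 ± 0.106. Rapgef3, the cAMP-activated exchange factor EPAC, rose from 2.37 ± 0.345 to 3.74 ± 0.25. Crtc1, a coactivator of CREB, rose from 4.32 ± 0.23 to 5.003 ± 0.16 (adjusted p = 0.0334). Leaving out WT replicate 1, WT replicate 3 or any one KO replicate ended that call (adjusted p from 0.058 to 0.103), as did dropping the filter on low values (adjusted p = 0.0697). Prkar1a, the regulatory subunit with the highest level of the list averaged over all libraries, rose from 86.4 ± 0.68 to 98.3 ± 0.995 (adjusted p = 0.00191). In WT Pkig was higher, with a mean of 91.1 FPKM.

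Of 6 tested A kinase anchoring proteins 2 rose and 3 fell. Akap12 and Akap13 rose, from 1.31 ± 0.11 to 4.61 ± 0.48 and from 4.95 ± 0.08 to 11.6 ± 1.53 FPKM, and Akap11 and Akap9 fell, from 20.7 ± 1.43 to 11.3 ± 0.62 and from 3.43 ± 0.24 to 2.39 ± 0.11. Among receptor kinases and arrestins, which end receptor signals upstream of RGS proteins, 2 of 5 rose and 2 fell. Arrb2 rose from 5.50 ± 0.77 to 10.7 ± 2.60 and Arrb1 from 3.15 ± 0.20 to 4.13 ± 0.24, and Grk5 fell from 18.8 ± 3.72 to 9.97 ± 0.26. Adrbk1 was at 16.6 ± 0.19 and 14.8 ± 0.48 (adjusted p = 0.0185), a call lost under all 3 other scalings (adjusted p from 0.221 to 0.564) and when WT replicate 2, WT replicate 3, KO replicate 1 or KO replicate 2 was left out (adjusted p from 0.0523 to 0.0601).

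Of 17 tested G protein coupled receptors 10 rose, 5 fell and 2 did not pass, with a list median of 0.66 against -0.07 over all rows. Adora2b, a Gs-coupled adenosine receptor, fell from 26.9, 37.9 and 31.9 FPKM to 3.76, 3.97 and 3.65 (log2 fold change -2.92 with SE 0.12, adjusted p = 1.34e-05). The sphingosine phosphate receptor S1pr3 fell from 75.1, 68.7 and 68.9 to 18.2, 18.6 and 19.1 (adjusted p = 3.55e-06). S1pr1, the highest of the list averaged over all libraries, fell from 115 ± 2.26 to 40.9 ± 1.13. In KO Ptgfr was higher, with a mean of 84.4 FPKM. Lpar4, a receptor for lysophosphatidic acid, rose from 1.16 ± 0.21 to 4.43 ± 0.93 (adjusted p = 0.00043), and Calcrl, the receptor partner of RAMP proteins, from 2.17 ± 0.06 to 6.86 ± 0.33 (adjusted p = 1.25e-05). Both prostaglandin E2 receptors that passed had a group at 0, which in this table need not mean absence: Ptger4 was at 13.0, 14.3 and 11.9 FPKM in WT and listed at 0 in KO, and Ptger1 had 0 in every WT library and 2.23, 2.01 and 1.62 FPKM in the KO libraries. These 2 were singled out after their values were seen, and each entered the test through its higher group alone.

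Of 6 tested genes known to respond to cAMP 3 fell and none rose, which is 50% past the threshold. Among all tested rows 65.2% passed, 36.7% lower and 28.5% higher. Nr4a1 fell from 120, 123 and 129 FPKM to 17.7, 22.7 and 49.7 (adjusted p = 0.00291), and Per1 from 33.0, 31.4 and 33.3 to 5.83, 6.68 and 8.47 (adjusted p = 4.17e-05). The third was Fos, from 1.91 ± 0.29 to 0.770 ± 0.066 (adjusted p = 0.000974), named after its values were seen. The 3 that did not pass were Sik1 (log2 difference -0.21, adjusted p = 0.0863), Nr4a2 (0.23, adjusted p = 0.271) and Areg (0.30, adjusted p = 0.0826). Of the 5 below the filter, Ppargc1a (0 to 0.0158 FPKM in WT, 0.434 to 0.965 in KO) and Dio2 (0 in WT, 0.0917 to 0.0974 in KO) were higher in every KO library, Nr4a3 was lower in every KO library (0.283 to 0.447 in WT, 0.0224 to 0.0559 in KO), and Ucp1 and Pck1 were listed at 0. They were not tested and were named after their values were seen. Over all lists 76 of 156 genes were tested; 31 rose, 25 fell and 20 did not pass, which is 73.7% past the threshold beside 65.2% of all rows.

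**Figure D4:**
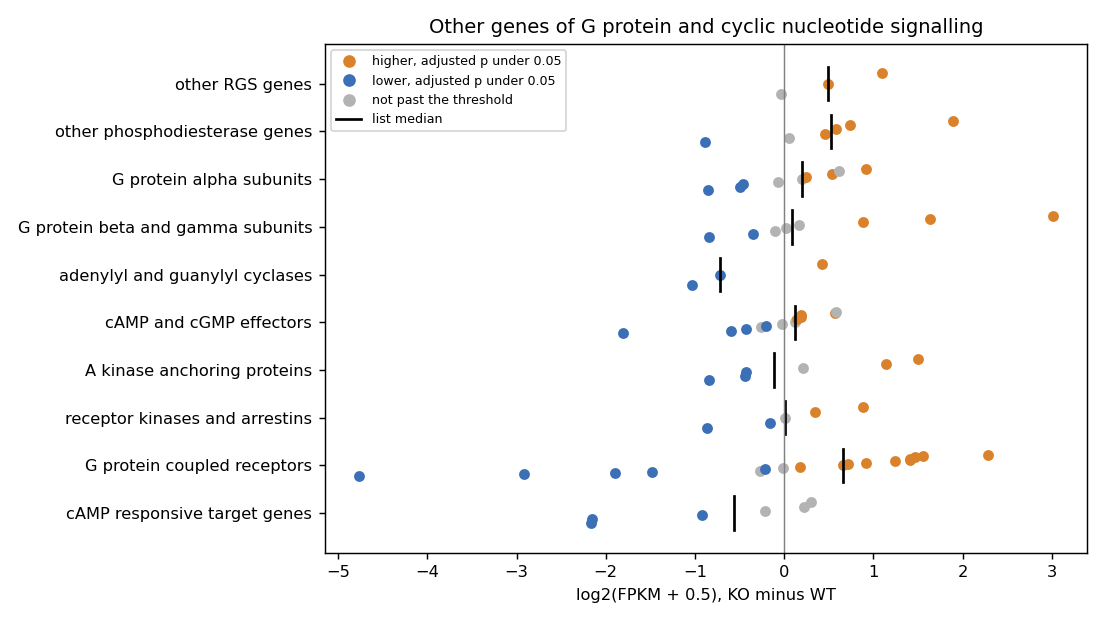
Difference on log2(FPKM + 0.5), KO minus WT, for the 76 tested genes of the 10 lists, other RGS and phosphodiesterase genes included, 1 point per gene; orange genes were higher and blue genes lower in KO at an adjusted p under 0.05, grey genes did not pass, and black bars are list medians. Most lists had genes on both sides of 0, and receptors had a median of 0.66. Of the 6 tested cAMP responsive genes 3 were called lower, none higher and 3 did not pass. The 5 cAMP responsive genes below the filter are not drawn.

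Several RGS genes lie near one another in the genome. Within 500 kb of Rgs2, the family members Rgs1 and Rgs13 were at or near 0 (at most 0.0416 FPKM), and of 4 tested neighbours 1, Cdc73, fell. Rgs8, near Rgs16, was at 0.104 FPKM or less, and of 4 tested neighbours of Rgs16 2 rose and none fell. Rgs5, 45664 bases from Rgs4, had 0 in every WT library and 0.269, 0.0467 and 0.0659 FPKM in the KO libraries. Over all 10 members 48 neighbours were tested, of which 24 fell and 9 rose, beside 36.7% lower and 28.5% higher among all rows. The falls were uneven: 7 of 8 tested neighbours of Rgs19, 5 of 9 of Rgs3 and 3 of 3 of Pde3b fell. The 2 tested neighbours of Pde1a rose. Whether members and their neighbours differed together was not tested.

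Among the rows whose profile over the 6 libraries lay closest to that of Rgs2 were Fam110c and Myl9, with root mean square differences of 0.15 and 0.17 log2 units after each profile was centred on its mean. Fam110c read 74.7, 78.9 and 76.4 FPKM in the WT libraries, against 1.86, 2.03 and 2.86 in the KO libraries. Closest to Pde5a were 1700008I05Rik, 1110002L01Rik and Mterfd2, at 0.084, 0.088 and 0.097 log2 units; 1110002L01Rik was listed at 0 in all WT libraries. Over 2 groups of 3 libraries, any row with a like difference between the groups scores as close.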

How the data were processed

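RNA from 3 WT and 3 SWELL1 KO libraries was sequenced on an Illumina HiSeq, per the series' design text. The authors deposited 1 table with a value per row and library, which is taken to be FPKM: TopHat, Cufflinks 2.02 and GRCm38 are named in the submitters' processing notes, Cufflinks gives FPKM, and the deposited values are never negative and not whole. Settings, annotation and strandedness are not given in these sources. Depth was estimated from the steps of the lowest values of 1237 genes with 1 transcript of at least 2500 bases. The lowest depth that fitted well was taken, because multiples of a depth also fit. It gives 17.4 to 26.0 M fragments per library, so values well under 1 FPKM rest on few fragments. In WT replicates 1 and 3 and KO replicates 1 and 3 another depth fitted more strongly, so the fragment numbers given here are rough.

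Groups came from the sample titles, and each p-value reflects only how far these libraries spread. Values were used as deposited. The 10515 of 31097 rows averaging 0.5 FPKM or more entered a two-sided limma fit (limma 3.58.1, R 4.3.3) of log2(FPKM + 0.5), its variance prior following the mean, and p-values were Benjamini-Hochberg adjusted over all of these rows. The fit was also run on simulated data. Those held far fewer changed rows than were called here, so that run cannot vouch for these calls. The average for the filter ran over both groups, so a row could enter the fit through its higher group alone. Genes sharing a row with another name (659 rows) were left out of the lists. Means and SDs are of FPKM, n = 3. Python 3.11.15, pandas 2.3.3, numpy 2.4.6 and matplotlib 3.10.9 served for reading and drawing.

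The members and lists were chosen with earlier results of these data known. Named genes were the members, every other tested RGS and phosphodiesterase gene, and per list the 2 largest increases and decreases among eligible genes. Eligible genes passed the threshold with no overlap, no library at 0 and a mean of at least 1 FPKM in the higher group. The gene of highest level, averaged over all libraries, was added per list. Likeness named the 3 nearest rows to the members with the largest fall and rise. Some results that these rules name are not reported here. Alternatives were 2 other pseudocounts, 2 other filters, 3 scalings, 2 variance models, a replicate block and leaving out each library. Exact zeros were not treated as absence.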

Additional observations from a re-analysis of the deposited data

How the results depend on the processing

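The count of rows past the threshold, 6860, ranged from 6106 to 7595 over the alternatives, and from 6325 to 6528 when 1 library was left out. The companion genes, 31 higher and 25 lower, and the 7 of 9 tested members with a log2 difference below 0 stayed within 1.5 times of those counts in every alternative run. No difference of a member without overlap and no called gene of the 10 lists that the text names changed direction in these alternatives; calls of Adrbk1, Crtc1, Pde8b and Npr1 were lost in at least 1 of them. The members' log2 differences moved by more than the replicate SD in 10 of 143 cases, all of them for Rgs2, Rgs19 and Pde5a under another pseudocount or scaling. The share of called rows that were higher in KO was 43.7% as deposited and 53.3% when libraries were rescaled without the row of largest share. Same-numbered WT and KO libraries did not deviate together across genes (r of 0.0034, 0.012 and -0.093). A correlation over all genes cannot exclude that the numbers pair them. Blocking by replicate number lowered the SE of Rgs3 (0.14 to 0.065), Rgs16 (0.15 to 0.076), Pde1a (0.20 to 0.088) and Pde3b (0.25 to 0.13). The SEs of Rgs19 and Pde4d also fell, and those of Rgs2, Pde4b and Pde5a rose. With the replicate block 6534 rows passed, and Crtc1, Pde8b and Npr1 missed the threshold (adjusted p of 0.0543, 0.0516 and 0.0551). With a filter at a mean of 2 FPKM, Pde3b and the named genes under that mean gave no value. Precision is limited by 3 libraries a group, and for Pde5a in WT and for Rgs4 by few fragments.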
